A study of Mus musculus with 12 samples.

Results

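The data compare mature 3T3-L1 adipocytes transfected with RNA interference oligonucleotides against Usp7 (USP7-si, 4 arrays) with cells given control oligonucleotides (control-si, 4 arrays). These 8 of the 12 arrays of the series were chosen by their group label, and all 41174 gene probes were examined. The other 4 arrays, of cells given oligonucleotides against TIP60 (TIP60-si), entered the same model and serve as a second knockdown. 3T3-L1 is a mouse preadipocyte line that stores lipid after differentiation. In all 3 groups the cells were differentiated, transfected with Amaxa technology, a form of electroporation, and lysed 2 days later. Every array carried amplified RNA of 1 adipocyte sample beside RNA of undifferentiated 3T3-L1 cells, the shared reference, and values are log2 of sample over reference. The sample carried Cy3 on replicates 1 and 3 of each group and Cy5 on replicates 2 and 4. The labels give no oligonucleotide sequence. They name 4 replicates of differentiated cells without saying that these were independent cultures, and p-values therefore cover the spread among these samples alone, which may be technical.

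USP7 is a protease that removes ubiquitin from other proteins and so changes their stability or location. Its described substrates and partners include the p53 ubiquitin ligase MDM2, p53 itself, FOXO transcription factors, the maintenance DNA methylation proteins UHRF1 and DNMT1, and Polycomb complexes. Because these effects act on proteins, a transcript array reads only what follows at the level of RNA. The series title links USP7 to TIP60, a histone acetyltransferase encoded by Kat5, in early adipogenesis.

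The median spot of the sample dye had a signal of 145 to 187 on the USP7-si arrays and of 124 to 170 on the control-si arrays, above median local backgrounds of 40 to 42 and 42 to 44. Between 85.5% and 98.3% of gene probes in USP7-si and between 86.2% and 97.9% in control-si stood more than 2 background SDs above background in that dye. USP7-si replicate 4 had the narrowest spread of log2 ratios, a median absolute value of 0.0554 against 0.109 to 0.123 on the other 3 USP7-si arrays and 0.117 to 0.132 on the control-si arrays. That array held 1 spot whose local background exceeded its signal by far, with differences of -17900 in Cy3 and -4050 in Cy5, where the next lowest spots were at -3.76 and -5.66. The background spread fitted by normexp, the background correction used here, was 173 in Cy3 and 61.9 in Cy5 on that array, and at most 7.02 and 25.3 on the other 11 arrays. When the local background of any spot dimmer than it was set to the median background of its array, the spread of USP7-si replicate 4 was 0.133. With no background correction it was 0.137, and in the authors' deposited ratios it was 0.148. Group means of the spread were 0.102 ± 0.031 in USP7-si and 0.123 ± 0.0064 in control-si (SD, n = 4), which an exact permutation test did not separate (two-sided p = 0.229, where 70 splits allow no p under 0.0286).

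**Figure D1:**
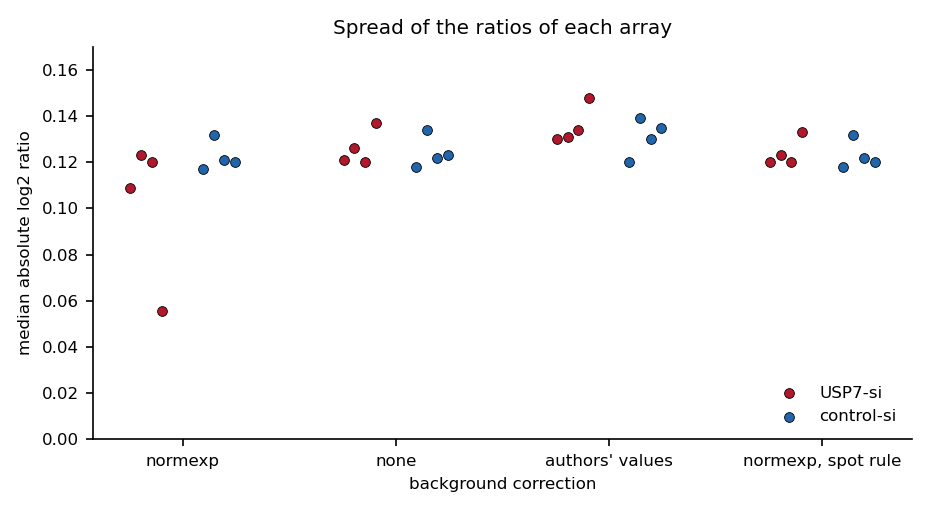
Median absolute log2 ratio of the 4 USP7-si arrays (red, left of each pair) and the 4 control-si arrays (blue, right of each pair) under 4 treatments of the background, with 1 point an array. The single low point, USP7-si replicate 4 at 0.0554 under normexp, lies at 0.133 to 0.148 under the other 3 treatments.

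The control-si arrays also stood apart in the dye of the reference, which held the same RNA on every array. After scaling of the average intensity between arrays, 7363 of 41174 probes (17.9%) differed in the reference dye between USP7-si and control-si arrays (limma, adjusted p below 0.05). Between TIP60-si and control-si arrays 8042 (19.5%) differed, and between USP7-si and TIP60-si arrays 2 (0.00486%) did. The files and labels give no slide or hybridisation batch, so any such difference between the control-si arrays and the others cannot be told apart from the control treatment. A ratio to the reference takes out a shift that both dyes share, so the difference in each dye is given below beside the genes that passed the test.

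The knockdown was seen in the targeted transcript. Usp7 (probe MMAB016154) read -1.80, -2.09, -1.59 and -1.54 on the USP7-si arrays, against 0.028, -0.069, -0.26 and -0.16 on the control-si arrays. The groups did not overlap, and the mean fell to -1.76 ± 0.25 in USP7-si, against -0.11 ± 0.12 in control-si (SD, n = 4). The log2 fold change was -1.64 (SE 0.10, limma adjusted p = 1.16e-05), which left 32% of the control-si level. With all arrays scaled to equal spread it was -2.15, and the adjusted p of 0.112 did not pass. The sample dye moved by -1.82 and the reference dye by -0.18. The difference in the ratio was -1.58 with the sample in Cy3 and -1.70 with the sample in Cy5. A second probe, MMAB029582, read -0.058 to -0.24 in USP7-si and -0.094 to -0.28 in control-si, a difference of 0.028 (adjusted p = 0.986). The 2 probes of the gene therefore disagree, and their positions on the transcript were not used here. For Kat5 the difference from control-si was -0.042 in USP7-si (adjusted p = 0.979) and -0.999 in TIP60-si.

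Few transcripts changed with the knockdown at this threshold. Of the 41174 probes, 35 (0.085%) passed an adjusted p below 0.05 in USP7-si minus control-si, 13 of them higher (0.0316%) and 22 lower (0.0534%). They cover 30 genes with a symbol and 5 probes without one. On all 35 probes the 4 USP7-si arrays lay beyond the 4 control-si arrays, which was so for 2.27% of all probes upwards and 2.42% downwards. All 35 had a difference of 1 sign in both dye orientations, and their median absolute log2 fold change was 0.40. Apart from Usp7 the changes were small: 4 of the 13 higher probes and 3 of the 22 lower ones, Usp7 included, exceeded 1.5-fold. An unadjusted p below 0.05 was reached by 2580 probes (6.27%). A test of whether the difference depended on the dye of the sample called 0 probes in limma, with 1465 (3.56%) at an unadjusted p below 0.05. In the 12 fits that left out 1 array each, 14 of the 35 probes kept their call in every fit, and 17 kept it in 6 or fewer. In 4 of these fits the array left out was of TIP60-si. Those 4 change the estimate of the spread but not the fold change, so counts over 12 fits favour kept calls. Scaling all arrays to equal spread, which stretches USP7-si replicate 4, left 4 calls, the rises of MMAB008626, MMAB000782 and Fos and the fall of Bag6. The same scaling after the spot background rule gave 56 (22 higher and 34 lower), and 34 of the 35 calls were among them. Median centring in place of loess gave 3 calls (2 higher and 1 lower).

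**Figure D2:**
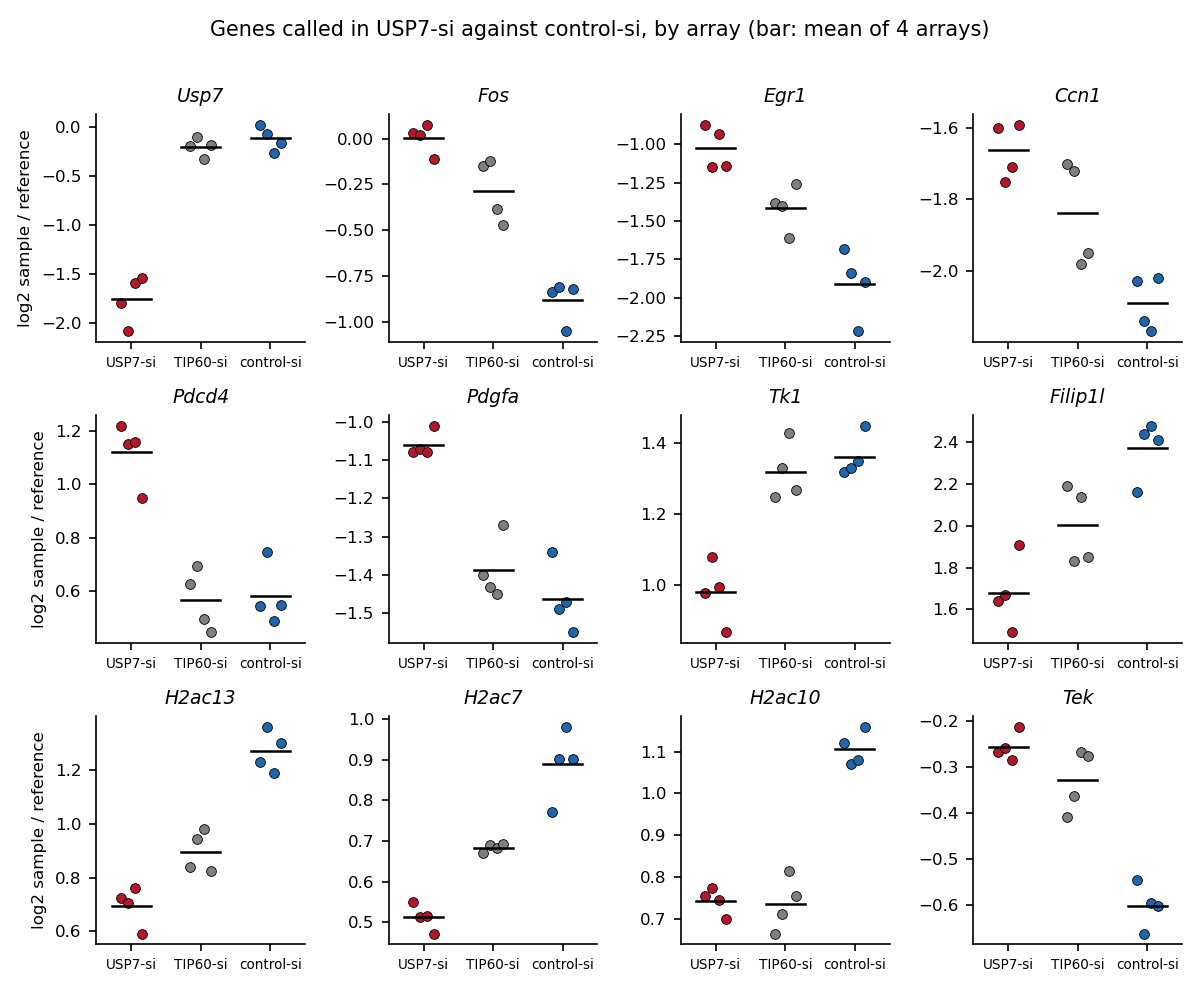
Log2 ratio of sample over reference, corrected for the dye term, of 12 genes that passed the test, in USP7-si (red), TIP60-si (grey) and control-si (blue), with 1 point an array and a bar at the mean of 4 arrays. Each panel has its own axis, which does not start at 0. In every panel the USP7-si points lie beyond the control-si points, while the TIP60-si points lie near control-si for Usp7, Pdcd4, Pdgfa and Tk1 and near USP7-si for H2ac10 and Tek.

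Immediate early genes, which cells transcribe within minutes of a stimulus, were among the largest rises. Fos, a subunit of the transcription factor AP-1, read 0.028, 0.022, 0.076 and -0.11 on the USP7-si arrays, against -0.84, -0.81, -1.05 and -0.82 on the control-si arrays. The highest control-si array lay far below the lowest USP7-si array, and the log2 fold change was 0.88 (SE 0.082, adjusted p = 0.000421, 1.84-fold). The sample dye moved by 0.77 and the reference dye by -0.11. Egr1, a zinc finger transcription factor, read -0.87, -1.15, -0.93 and -1.14 in USP7-si, against -1.68, -1.84, -2.22 and -1.90 in control-si. Its log2 fold change was 0.89 (SE 0.11, adjusted p = 0.00415), with 0.67 in the sample dye and -0.22 in the reference dye. Ccn1, a secreted matricellular protein induced by growth factors, read -1.60, -1.75, -1.71 and -1.59 in USP7-si, against -2.03, -2.14, -2.17 and -2.02 in control-si. Its log2 fold change was 0.43 (SE 0.071, adjusted p = 0.0374), with 0.49 in the sample dye and 0.06 in the reference dye. The Ccn1 call was lost in the 8 fits that each left out 1 array of either group, with adjusted p from 0.0604 (without control-si replicate 1) to 0.203 (without USP7-si replicate 1), and scaling to equal spread turned the value to -0.141.

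Of the 38 measured genes of the immediate early list, these 3 rose and 0 fell. A further 6 had an unadjusted p below 0.05 on the higher side, making 9, and Nr4a1, a nuclear receptor, was the 1 gene past it on the lower side. After scaling to equal spread 1 call remained, Fos, at 0.807 (adjusted p = 0.0468), with Egr1 at 0.473 (adjusted p = 0.848). In that setting 4 genes were at an unadjusted p below 0.05 and higher. With the spot background rule before the scaling, 4 were called higher, and 9 were at that unadjusted p and higher. Over all 18295 genes, each by its brightest probe, 3.76% were at an unadjusted p below 0.05 and higher, 3.45% were at that p and lower, and 0.137% passed the adjusted test. Next by p stood Zfp36, an RNA-binding protein that speeds decay of inflammatory messages, at 0.37 (SE 0.068, adjusted p = 0.0698). It read -0.31, -0.45, -0.31 and -0.48 in USP7-si, against -0.66, -0.78, -0.82 and -0.78 in control-si, with no overlap. On 6 of the 38 the 4 USP7-si arrays lay above the 4 control-si arrays, where 2.81% of all genes did so. The median of the list was 0.032, beside 0.0039 over all genes. Fos, Egr1, Ccn1 and Zfp36 stood below the undifferentiated reference in control-si, and Fos was close to it in USP7-si.

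The promoter of Fos is shown because Fos kept its call in all 12 fits that left out 1 array. It is taken from RefSeq (GRCm38.p6, chr12:85473640-85473939, plus strand, 250 bases before to 50 after the annotated start) and the capitals mark the letters TATAAA, searched on both strands and found in 13.6% of all 32851 promoters of this length.
Fos: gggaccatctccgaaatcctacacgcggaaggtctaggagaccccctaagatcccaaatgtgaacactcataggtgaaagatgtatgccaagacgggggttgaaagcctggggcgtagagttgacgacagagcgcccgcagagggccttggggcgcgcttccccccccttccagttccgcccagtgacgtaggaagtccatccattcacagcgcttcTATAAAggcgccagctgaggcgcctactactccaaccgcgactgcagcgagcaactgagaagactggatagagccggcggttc
Neither TGACGTCA, present in 1.79% of all promoters, nor the CArG box, present in 1.63%, is in this window. Only exact matches within the window were searched, so sites of other spelling or further upstream would be missed. Ccn1 (chr3:145649936-145650235, minus strand) also holds TATAAA and neither of the other letters in its window.

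The other named rises had different roles. Pdcd4, which inhibits the translation factor eIF4A, read 1.22, 1.15, 1.16 and 0.95 in USP7-si, against 0.55, 0.75, 0.49 and 0.55 in control-si. Its log2 fold change was 0.54 (SE 0.076, adjusted p = 0.013), and the call was lost in 5 of the 12 fits without 1 array (adjusted p 0.0564 to 0.0923). The second Pdcd4 probe was at -0.051. Pdgfa, a platelet-derived growth factor chain, read -1.08, -1.07, -1.08 and -1.01 in USP7-si, against -1.34, -1.49, -1.47 and -1.55 in control-si. Its log2 fold change was 0.40 (SE 0.055, adjusted p = 0.0118), and its second probe was higher too at 0.29 (SE 0.093, adjusted p = 0.497). Without USP7-si replicates 1 or 4 or control-si replicates 2 or 4 the Pdgfa call was lost (adjusted p 0.0541 to 0.082). Trip11, a Golgi-associated protein, rose by 0.47, the efflux transporter gene Abcc5 by 0.36 and the homeobox gene Hoxa7 by 0.36 (SE 0.077, 0.058 and 0.059). These 3 calls were each lost in 9 of the 12 fits. The 2 other Trip11 probes were at -0.024 and 0.039, and the 3 other Abcc5 probes ranged from 0.067 to 0.118. Ablim1, an actin-binding protein, rose by 0.49 (SE 0.062, adjusted p = 0.00561) on 1 of 7 probes, where the other 6 ranged from -0.15 to 0.18.

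Genes of histone H2A were the largest group among the falls. Replication-dependent H2A proteins package new DNA in S phase, and their genes lie in clusters. H2ac13 read 0.72, 0.71, 0.76 and 0.59 in USP7-si, against 1.23, 1.36, 1.19 and 1.30 in control-si. It fell by 0.575 on the log2 scale (SE 0.057, adjusted p = 0.000595) to 67.1% of control-si. H2ac23 fell by 0.54 (SE 0.056), H2ac7 by 0.38 (SE 0.048), H2ac10 by 0.37 (SE 0.046), H2ac15 by 0.35 (SE 0.045) and H2ac1 by 0.34 (SE 0.045), with adjusted p from 0.000856 to 0.0066. H2ac1 lost its call without USP7-si replicate 1 (adjusted p = 0.0527) or control-si replicate 4 (0.0552), and the others kept theirs in all 12 fits. Scaling to equal spread ended all 6 calls, with log2 fold changes of -0.363 to -0.109 and adjusted p of 0.646 to 0.912. With the spot background rule before that scaling, 5 genes of the replication-dependent histone list, which does not hold all 6, were called lower. For all 6 genes the 4 USP7-si arrays lay below the 4 control-si arrays, as on every called fall, beside 2.42% of all probes. The coding sequences of H2A genes are closely related, though the first coding bases of H2ac1 differ from those of H2ac13. Probe sequences were not used here, so the 6 probes may read overlapping transcripts and do not count as independent genes.

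The dyes separated the H2A probes. For H2ac13, H2ac7 and H2ac15 the sample dye fell by 0.72, 0.53 and 0.44 and the reference dye by 0.15, 0.16 and 0.091. For H2ac23 the sample dye fell by 0.19 while the reference dye was higher by 0.35 on the USP7-si arrays. H2ac10 read 12.4, 12.3, 12.3 and 12.5 log2 units in the sample dye of USP7-si, against 12.4, 12.3, 12.2 and 12.3 in that of control-si. In the reference dye it read 11.6, 11.5, 11.6 and 11.8 on the USP7-si arrays, against 11.3, 11.2, 11.1 and 11.2 on the control-si arrays. For H2ac10 and H2ac1 the reference dye was higher by 0.42 and 0.36 on the USP7-si arrays, and the sample dye by 0.056 and 0.019. A shift shared by both dyes cannot be separated out of such values, so they do not place the change in 1 dye. Of the 30 measured genes of the replication-dependent histone list, which has 61 members, 5 fell and 0 rose, where 0.137% of all genes were called. At an unadjusted p below 0.05, 10 (33.3%) were lower and 2 higher, beside 3.45% and 3.76% of all genes. The median of the list was -0.047, and 10 of its members stood above 0. That median was 0.039 after scaling to equal spread, and -0.026 with the spot background rule before the scaling.

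Promoters of H2ac13, H2ac7 and H2ac10 are shown because the first 2 passed the test in the sample dye and H2ac10 passed it in the reference dye. They are from RefSeq (GRCm38.p6), on the plus strand, at chr13:21716162-21716461 for H2ac13, chr13:23574131-23574430 for H2ac7 and chr13:23533625-23533924 for H2ac10. Capitals mark CCAAT and TATAAA on either strand.
H2ac13: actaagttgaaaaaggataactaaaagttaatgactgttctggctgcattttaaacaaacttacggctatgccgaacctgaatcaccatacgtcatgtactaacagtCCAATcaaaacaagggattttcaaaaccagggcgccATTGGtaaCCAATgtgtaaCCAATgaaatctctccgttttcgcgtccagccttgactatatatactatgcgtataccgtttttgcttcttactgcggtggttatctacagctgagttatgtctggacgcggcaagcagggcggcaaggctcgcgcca
H2ac7: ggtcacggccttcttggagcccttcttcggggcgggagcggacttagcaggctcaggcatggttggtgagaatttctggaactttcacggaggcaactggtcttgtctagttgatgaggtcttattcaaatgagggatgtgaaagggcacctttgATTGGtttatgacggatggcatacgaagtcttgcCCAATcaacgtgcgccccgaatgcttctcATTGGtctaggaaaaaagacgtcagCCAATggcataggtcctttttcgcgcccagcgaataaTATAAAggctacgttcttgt
H2ac10: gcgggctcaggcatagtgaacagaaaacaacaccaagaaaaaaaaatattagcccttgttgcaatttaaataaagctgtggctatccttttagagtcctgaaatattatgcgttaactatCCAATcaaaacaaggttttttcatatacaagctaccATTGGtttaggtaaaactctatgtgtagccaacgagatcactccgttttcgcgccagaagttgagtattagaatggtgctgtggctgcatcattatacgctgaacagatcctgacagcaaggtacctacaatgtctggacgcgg
The window of all 6 called H2A genes holds CCAAT, which is in 37.4% of all promoters. That of 3 of the 6 holds TATAAA, which is in 13.6%. In H2ac7 and H2ac15 TATAAA lies after the annotated start, at 30 and 21, and in H2ac1 before it, at -192 and -32. These matches describe the letters in the window.

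Some genes of DNA replication fell in USP7-si. Tk1, the thymidine kinase of S phase, read 0.98, 1.08, 0.996 and 0.87 in USP7-si, against 1.32, 1.33, 1.35 and 1.45 in control-si. It fell by 0.38 (SE 0.058, adjusted p = 0.0244), with -0.34 in the sample dye and 0.04 in the reference dye. The Tk1 call was lost in 6 of the 12 fits (adjusted p 0.0614 to 0.14). Mcm6, a subunit of the replicative helicase, read 0.19, 0.16, 0.39 and 0.34 in USP7-si, against 0.61, 0.70, 0.61 and 0.78 in control-si. It fell by 0.41 (SE 0.065, adjusted p = 0.0347), with -0.16 in the sample dye and 0.25 in the reference dye, and kept its call in 4 of the 12 fits. Both genes stood above the undifferentiated reference in both groups.

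Of the 46 measured genes listed for DNA replication and entry into S phase (the G1/S list), 2 fell (Tk1 and Mcm6) and 0 rose. At an unadjusted p below 0.05, 30 (65.2%) were lower and 0 higher, beside 3.45% and 3.76% of all genes. On 26 the 4 USP7-si arrays lay below the 4 control-si arrays, where 2.66% of all genes did so. The median log2 fold change was -0.20. The list medians per array were 0.26, 0.28, 0.35 and 0.21 in USP7-si, against 0.46, 0.53, 0.41 and 0.54 in control-si, with no overlap. Next by p were Mcm2, another helicase subunit (-0.35, SE 0.064, adjusted p = 0.0721), and Ccnd2, a D-type cyclin (-0.30, SE 0.059, adjusted p = 0.117). For Mcm2 the sample dye moved by -0.093 and the reference dye by 0.26, and for Ccnd2 by -0.26 and 0.042. Over the list the median difference was -0.17 in the sample dye and 0.013 in the reference dye.

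The mitosis list showed a like pattern at lower confidence for each gene. Of its 39 measured members, 0 passed the adjusted test in limma, and all 39 stood below 0. At an unadjusted p below 0.05 and lower were 33 (84.6%), beside 3.45% of all genes. The list medians were 0.93, 0.88, 1.0 and 0.73 in USP7-si, against 1.12, 1.38, 1.11 and 1.29 in control-si. The median log2 fold change was -0.315, with -0.34 in the sample dye and -0.024 in the reference dye. Mki67, a marker of cycling cells, read 1.48, 1.41, 1.62 and 1.36 in USP7-si, against 1.74, 2.05, 1.76 and 1.93 in control-si (-0.40, SE 0.083, adjusted p = 0.138). Cdc20, an activator of the anaphase-promoting complex, read 1.26, 1.26, 1.38 and 1.16, against 1.59, 1.70, 1.47 and 1.71 (-0.35, SE 0.069, adjusted p = 0.102). Neither overlapped between the groups. Kif20a, a kinesin of cytokinesis, was nearest to the threshold (-0.24, SE 0.042, adjusted p = 0.0569). Foxm1, a mitotic transcription factor, had a log2 fold change of -0.21 (SE 0.043), with 0.39 in the sample dye and 0.60 in the reference dye. With the spot background rule above, the medians of the mitosis and G1/S lists were -0.225 and -0.161, and the counts at an unadjusted p below 0.05 were 27 each. After scaling to equal spread alone the medians were -0.059 and -0.084, with counts of 4 and 14. With the spot background rule before the scaling they were -0.243 and -0.173, with counts of 31 and 27. In bulk RNA, fewer dividing cells and less of these transcripts per cell cannot be told apart.

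**Figure D3:**
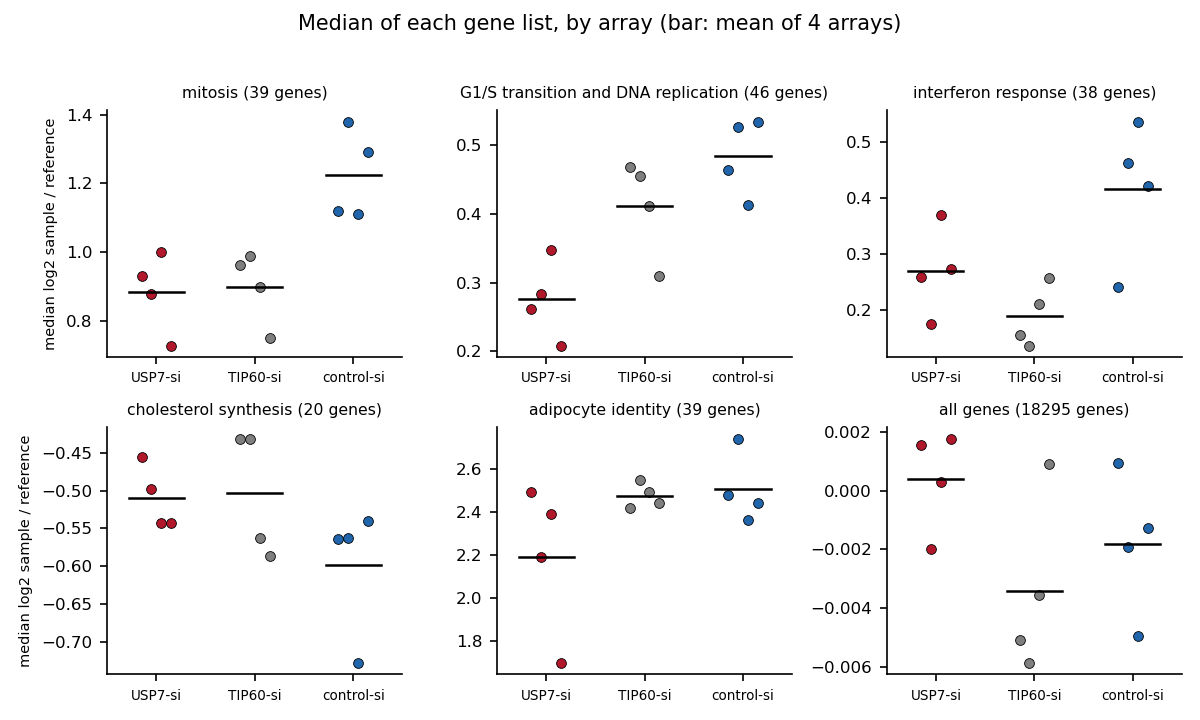
Median log2 ratio over the reference of 5 gene lists and of all genes, in USP7-si (red), TIP60-si (grey) and control-si (blue), with 1 point an array and a bar at the mean of 4 arrays. Each panel has its own axis, and that of all genes spans less than 0.01. USP7-si and control-si do not overlap for mitosis and G1/S, and USP7-si replicate 4 is the low point of the adipocyte identity panel at 1.70.

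Other falls were scattered over functions. Filip1l, an inhibitor of cell migration, read 1.64, 1.67, 1.49 and 1.91 in USP7-si, against 2.16, 2.44, 2.48 and 2.41 in control-si. It fell by 0.70 (SE 0.10, adjusted p = 0.023), the largest fall after Usp7 among the probes that passed the test, but 2 other Filip1l probes were at 0.011 and 0.029. Bag6, a chaperone of newly made proteins, read -0.037, 0.032, 0.007 and 0.012, against 0.40, 0.51, 0.63 and 0.56, and fell by 0.52 (SE 0.053, adjusted p = 0.000821). Bag6 kept its call in all 12 fits that left out 1 array and after scaling to equal spread, while its other 3 probes lay between -0.036 and 0.004. Set, a histone chaperone, fell by 0.39 (SE 0.064, adjusted p = 0.0362), and its 2 other probes were at -0.33 (adjusted p = 0.0607) and -0.021. Ncapd2, a condensin subunit, fell by 0.26 (SE 0.044, adjusted p = 0.0458), with its 2 other probes at -0.27 (adjusted p = 0.485) and -0.095. Kpna2, an importin, fell by 0.38 (SE 0.061, adjusted p = 0.0347), with 0.046 in the sample dye and 0.42 in the reference dye. The mitochondrial leucyl transfer RNA synthetase gene Lars2 fell by 0.42 (0.044 after scaling to equal spread) and the chromatin factor gene Arid5b by 0.32. Lrrc58, Heatr6 and Kndc1 fell by 0.39, 0.32 and 0.34. The 6 other Arid5b probes ranged from -0.075 to 0.217, and the 3 other Lrrc58 probes from -0.168 to 0.097. The 3 other Heatr6 probes lay between -0.038 and 0.046, and the 3 other Kndc1 probes between -0.074 and 0.034. Of the 12 fits that left out 1 array, Ncapd2 kept its call in 1, Set and Arid5b in 3, Kpna2, Lars2, Lrrc58 and Kndc1 in 4, Heatr6 in 5 and Filip1l in 6, and these calls also ended with equal spread. Of the 30 genes with a symbol, 16 had more than 1 probe, and for 6 of those another probe moved the same way at an unadjusted p below 0.05.

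The calls divided by dye. In 30 of the 35 the sample dye moved the same way as the ratio, and in 28 it moved further than the reference dye. The probes were chosen by the ratio, of which the sample dye is 1 part, so the choice itself favours this agreement. In 23 the sample dye passed its own test the same way as the ratio and the reference dye did not pass. Over all probes 13.4% passed in the sample dye alone, which is no baseline for probes chosen by their ratio. In Tek, an endothelial receptor tyrosine kinase, the sample dye moved against the ratio. Its ratios were -0.27, -0.26, -0.29 and -0.21 in USP7-si, against -0.55, -0.66, -0.60 and -0.60 in control-si, 0.35 higher in USP7-si (SE 0.047, adjusted p = 0.0104). Yet the sample dye was lower in USP7-si by 0.49 and the reference dye by 0.84, and its other probe was at -0.0035. Olfr598, an olfactory receptor gene with a rise of 0.43 in the ratio, had -0.39 in the sample dye and -0.82 in the reference dye. The part of the array difference in these calls was not tested.

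**Figure D4:**
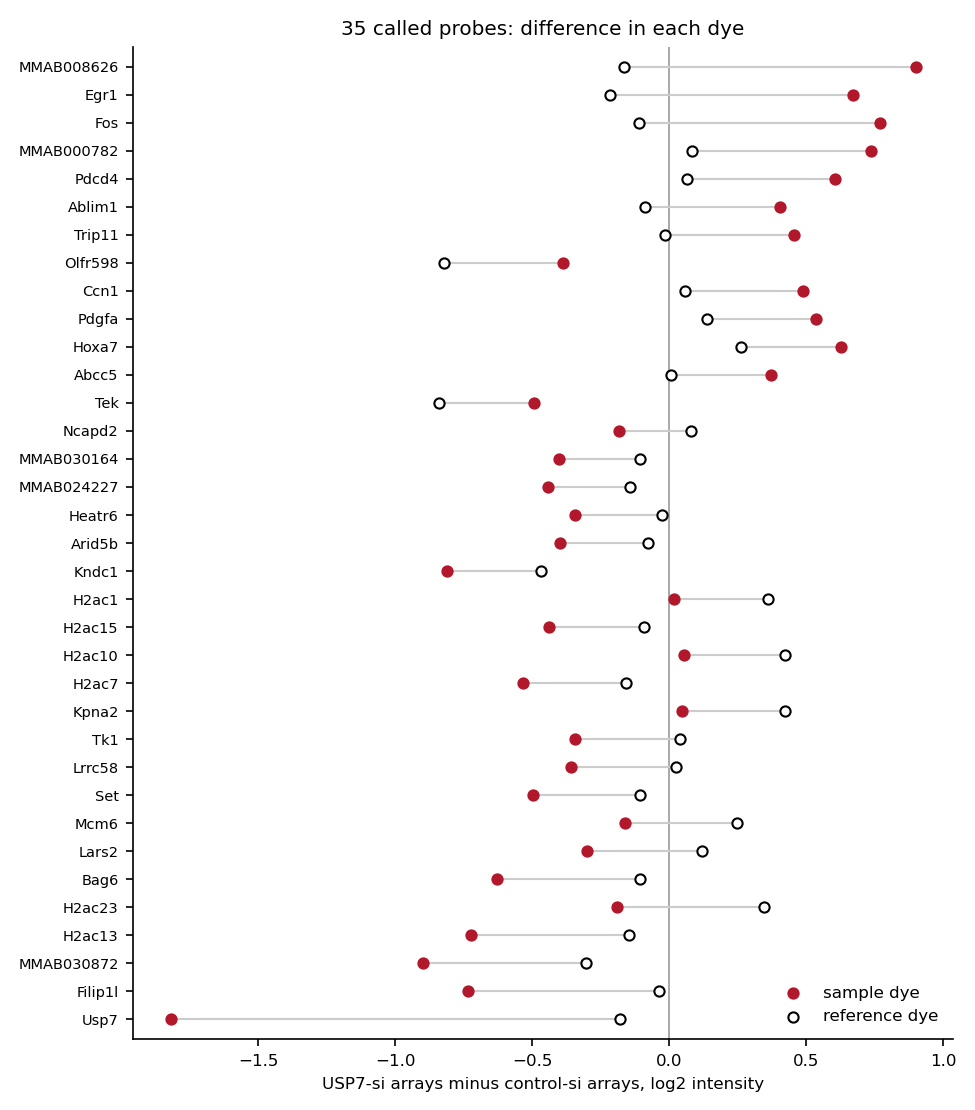
Difference between USP7-si and control-si arrays in the sample dye (red, filled) and in the reference dye (open), in log2 intensity, for the 35 probes that passed the test, ordered by log2 fold change of the ratio with the highest at the top. Fos, Pdcd4 and Tk1 moved in the sample dye with the reference between -0.11 and 0.067, and Tek and Olfr598 moved furthest in the reference dye, at -0.84 and -0.82.

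The second knockdown shows which of these changes differed between the siRNA groups. Both knockdowns were set against the same 4 control-si arrays, so their fold changes are given side by side and the difference between them was tested directly. Of the 35 probes, 15 differed between USP7-si and TIP60-si (limma, adjusted over all probes), 9 of the 13 higher and 6 of the 22 lower. Over all 41174 probes 3037 (7.38%) did. The 35 were picked on the same USP7-si arrays, which favours such differences, so 7.38% is no baseline for them. Usp7 was at -1.64 in USP7-si and -0.085 in TIP60-si. Pdcd4 was at 0.54 and -0.016 (adjusted p of the difference 0.00112), Pdgfa at 0.40 and 0.072 (0.00377), and Tk1 at -0.38 and -0.042 (0.00388). Trip11 was at 0.47 and -0.22 (0.000263), Hoxa7 at 0.36 and -0.11 (0.000549) and Abcc5 at 0.36 and 0.084 (0.0111). Fos and Egr1 were higher in both, at 0.88 and 0.59 for Fos (0.0484) and 0.89 and 0.50 for Egr1 (0.041). H2ac13 was lower in both, at -0.575 and -0.37 (0.0464), and so was H2ac7, at -0.38 and -0.21 (0.0464). For H2ac13 the sample dye averaged 8.42 in USP7-si and 8.46 in TIP60-si, and the reference dye 7.72 and 7.56. With the spot background rule, 11 of the 35 differed.

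For the other 20 probes the difference between the knockdowns did not pass, which does not show that they act alike. Among them were Ablim1 (0.49 in USP7-si and 0.53 in TIP60-si), Bag6 (-0.52 and -0.48), Set (-0.39 and -0.41), Ncapd2 (-0.26 and -0.26), H2ac10 (-0.37 and -0.37) and Lars2 (-0.42 and -0.51). In 12 of the 35 the sample dye passed the same way as the ratio, the reference dye did not pass, and the knockdowns differed. By list, the mitosis median was -0.315 in USP7-si and -0.29 in TIP60-si, and 2 of 39 genes differed between the knockdowns. The G1/S median was -0.20 in USP7-si and -0.077 in TIP60-si, and 11 of 46 genes differed, 9 of them lower in USP7-si, where 1767 of 18295 genes differed in all. Among the 11 were Tk1 and Ccnd2.

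**Figure D5:**
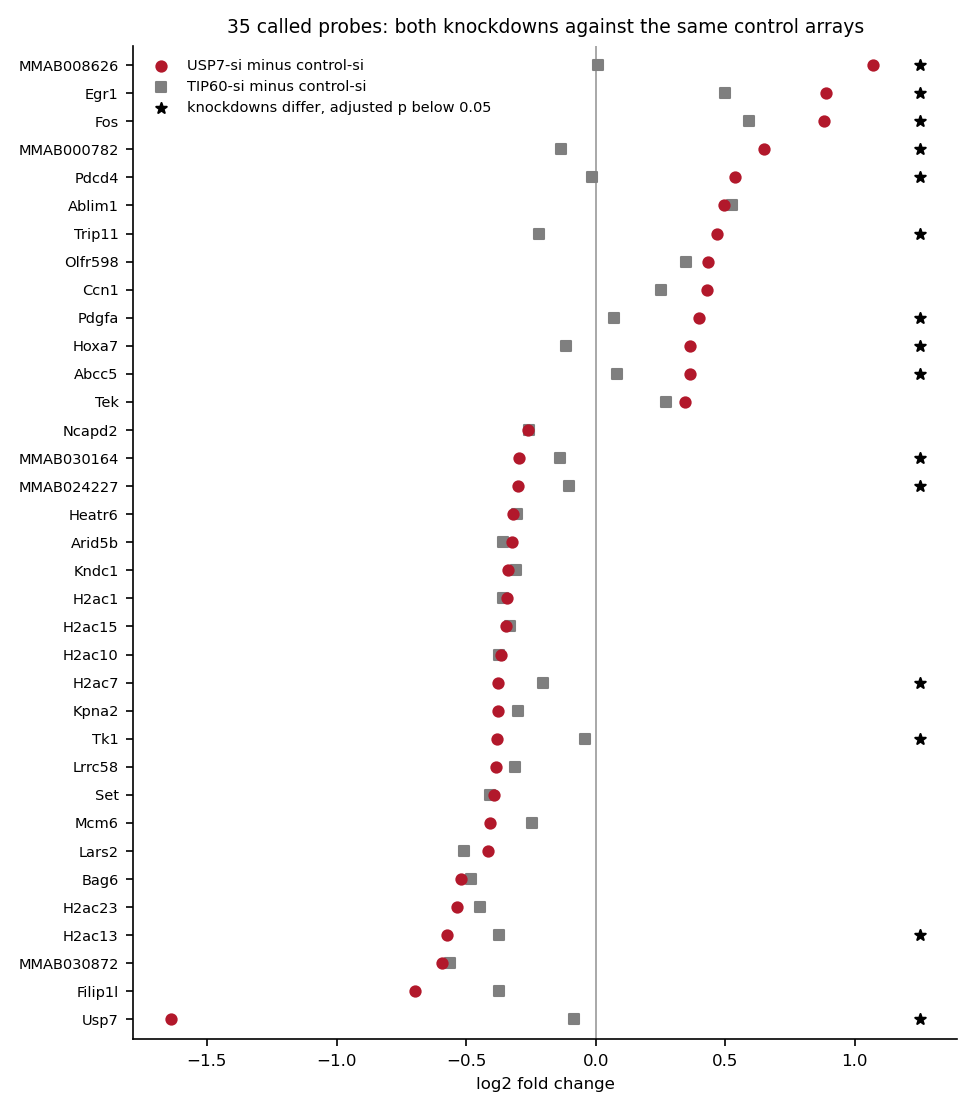
Log2 fold change of the 35 probes in USP7-si (red circles) and in TIP60-si (grey squares), each against the same 4 control-si arrays, ordered as in the dye plot. Stars mark the 15 probes whose difference between the knockdowns passed an adjusted p below 0.05, 9 of them among the 13 higher probes.

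The 5 probes without a symbol held some of the clearest separations. MMAB008626 read 0.65, 0.33, 0.56 and 0.50 in USP7-si, against -0.52, -0.55, -0.64 and -0.52 in control-si, a rise of 1.07 (SE 0.076, adjusted p = 2.91e-05, 2.10-fold) that was the largest on the array. In TIP60-si it was at 0.011. MMAB000782 rose by 0.65 (SE 0.064, adjusted p = 0.000595), with -0.13 in TIP60-si. MMAB030872 fell by 0.59 (SE 0.045, adjusted p = 3.82e-05), with -0.56 in TIP60-si. These 3 kept their calls in all 12 fits, and no gene is assigned to them here.

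Some uncalled genes showed larger differences than called ones. Txn2, the mitochondrial thioredoxin, read -1.15, -1.42, 0.34 and 0.32 in USP7-si, against 0.47, 0.45, 0.47 and 0.48 in control-si. USP7-si replicates 1 and 2 were thus far below the other arrays and replicates 3 and 4 close to them, and the log2 fold change was -0.95 (SE 0.31, adjusted p = 0.547). Spp1, the secreted phosphoprotein osteopontin, read 2.17, 2.11, 2.20 and 2.23, against 2.40, 2.71, 2.74 and 2.95 (-0.52, SE 0.13, adjusted p = 0.257), and was at 0.31 in TIP60-si. Stmn1, a microtubule regulator, was at -0.55 (SE 0.12, adjusted p = 0.186), Cenph, a kinetochore protein, at -0.52 (adjusted p = 0.205) and Top2a, the topoisomerase of chromosome condensation, at -0.51 (adjusted p = 0.285). Clcn3, a chloride transporter, was at -0.55 with USP7-si replicate 4 alone at 0.29 and the other 3 between 1.18 and 1.34. Tbl3, of ribosome biogenesis, was at -0.49 (adjusted p = 0.068), and Pbk, Ckap2 and Bub1b, all of mitosis, were between -0.47 and -0.44. The rises were ranked only among uncalled genes whose groups did not overlap, clone names aside. After Zfp36 these were Plce1 (0.35), Tshz1 (0.345), Pxdc1 (0.34), Tmem158 (0.34), Sparc (0.33), Fam177a2 (0.33), Myh9 (0.32), Entpd2 (0.32) and the olfactory receptor gene Olfr1306 (0.346). Over all probes, 9 were more than 1.5-fold higher and 4 of these were called, so uncalled probes outside this ranking rose further. In the reference dye Olfr1306 stood at -0.91 and Sparc at -0.33.

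No list of adipocyte function had a called member. Adipocyte identity genes had a median log2 fold change of -0.0685. Of 39, 1 was at an unadjusted p below 0.05 and higher and 4 (10.3%) lower, beside 3.76% and 3.45% of all genes. Their per-array medians were 2.49, 2.19, 2.39 and 1.70 in USP7-si, against 2.48, 2.74, 2.36 and 2.44 in control-si. With the spot background rule the median was -0.032, without USP7-si replicate 4 it was -0.0076, and after scaling to equal spread it was 0.489. With the spot background rule before the scaling it was -0.039. Plin4, a lipid droplet coat protein, was at 0.21 (SE 0.072, adjusted p = 0.594) and Agpat2, an enzyme of triglyceride synthesis, at -0.20 (SE 0.078, adjusted p = 0.664). Agpat2 was 1 of 9 genes of this list that stood lower in USP7-si than in TIP60-si when the knockdowns were compared (adjusted p = 0.00102), and 0 stood higher. Of all genes, 3.03% were lower and 6.62% higher in USP7-si than in TIP60-si. These counts come from the reported fit alone, in which USP7-si replicate 4 read low for this list. They were not repeated with the spot background rule or without that array. Of the lists of fatty acid and triglyceride synthesis, lipolysis, fatty acid oxidation, the citrate cycle and oxidative phosphorylation, 0 members were called in limma. Between 1 and 5 per list (4.35% to 21.7%) were at an unadjusted p below 0.05, beside 7.21% of all genes. Their medians lay between -0.049 and 0.0059, and between 0.108 and 0.296 after scaling to equal spread. With the spot background rule before the scaling they lay between -0.047 and 0.0115. All 20 measured genes of cholesterol synthesis stood above 0, at a median of 0.092 with 1 at an unadjusted p below 0.05. That median was -0.102 after scaling to equal spread, and 0.087 with the spot background rule before the scaling. The sample dye of this list had a median difference of -0.0075 against -0.10 in the reference dye.

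Transcripts of USP7 substrates and of the pathways they control had few calls. Of the 53 measured USP7 partners and substrates, 2 fell, the target Usp7 itself and Set, where 0.137% of all genes were called. At an unadjusted p below 0.05, 10 (18.9%) were lower and 1 higher, beside 3.45% and 3.76% of all genes. On 5 the USP7-si arrays lay below the control-si arrays, where 2.66% of all genes did so. The median of the list was -0.021. Uhrf1, a reader of hemimethylated DNA, read 1.05, 0.99, 1.23 and 0.92 in USP7-si, against 1.34, 1.41, 1.23 and 1.46 in control-si (-0.31, SE 0.082, adjusted p = 0.328). Mdm2 was at -0.12 (SE 0.054, adjusted p = 0.779) and Dnmt1 at -0.13 (SE 0.058, adjusted p = 0.749). The p53 target list had 0 of 31 members called, 4 at an unadjusted p below 0.05 and higher and 1 lower, and a median of 0.036. The cyclin-dependent kinase inhibitor gene Cdkn1a, the best known p53 target, was at 0.015 (SE 0.057, adjusted p = 0.995). The lists of FOXO targets (median 0.018, 24 genes), Polycomb subunits (0.015, 32 genes) and other ubiquitin-specific proteases (0.021, 48 genes) had 0 members called. At an unadjusted p below 0.05 were 2, 2 and 6 (8.33%, 6.25% and 12.5%), beside 7.21% of all genes. The Polycomb and protease medians turned with equal spread, to -0.015 and -0.0066. With the spot background rule before that scaling they were 0.0101 and 0.0162.

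The interferon response and DNA repair lists had 0 called members in limma. Of 38 interferon genes, 18 (47.4%) were at an unadjusted p below 0.05 and lower and 0 higher, beside 3.45% and 3.76% of all genes. Their median was -0.17, and on 4 the USP7-si arrays lay below the control-si arrays, where 2.66% of all genes did so. Usp18, a protease of the ubiquitin-like ISG15, read 0.35, 0.41, 0.52 and 0.35 in USP7-si, against 0.59, 0.81, 0.97 and 0.91 in control-si (-0.42, SE 0.082, adjusted p = 0.113). In TIP60-si the list median was -0.29. After scaling to equal spread the median in USP7-si was -0.078, with 6 genes at an unadjusted p below 0.05 and lower. With the spot background rule before the scaling it was -0.152, with 17 such genes. Of 35 DNA damage response and repair genes, 11 were at an unadjusted p below 0.05 and lower and 1 higher, with a median of -0.072 (-0.021, with 6 lower, after scaling to equal spread). Topbp1, an activator of the ATR kinase, was nearest to the threshold (-0.23, SE 0.042, adjusted p = 0.0721) and differed from TIP60-si (adjusted p = 0.0154). Brca1, of homologous recombination, was at -0.24 (SE 0.052, adjusted p = 0.186). Among insulin signalling genes the ubiquitin ligase gene Cbl was at -0.30 (SE 0.065, adjusted p = 0.183) and the receptor gene Igf1r at 0.31 (SE 0.092, adjusted p = 0.435), and Igf1r was higher in USP7-si than in TIP60-si by 0.67 (adjusted p = 0.00117).

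The cells carried adipocyte transcripts in both groups and their markers did not pass the test between them. Adipoq, the adipokine adiponectin, stood at 5.75 ± 0.17 in USP7-si and 5.79 ± 0.24 in control-si, and Pparg, the master regulator of fat cell formation, at 2.55 ± 0.074 and 2.53 ± 0.14 (SD, n = 4). The other adipocyte markers had log2 fold changes of -0.17 (Retn), -0.17 (Cebpa), -0.16 (Plin1), -0.10 (Fabp4) and -0.033 (Cfd). Of the preadipocyte markers, Dlk1 was at -1.42 ± 0.054 in USP7-si and -1.42 ± 0.076 in control-si, and Pdgfra at -0.87 and -0.83. The preadipocyte marker Ly6a stood above the reference instead, at 1.99 and 2.1. Macrophage, endothelial and muscle lists had medians of -0.0052, 0.033 and -0.033 in the difference, with Tek the 1 called member among them. Per-array medians of these 3 lists lay between -0.044 and 0.038 in USP7-si and between -0.061 and 0.06 in control-si, while single members stood further from the reference, such as the macrophage gene Lyz2 at -1.92 in USP7-si and -2.12 in control-si.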

How the data were processed

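RNA of 12 samples was measured on 2-colour Agilent arrays, and 8 arrays (USP7-si and control-si) were compared, with the 4 TIP60-si arrays in the same fit. In the deposited spot files, each spot has a linear intensity per dye with that of its surroundings. Per the protocol text deposited with the series, the authors scanned on an Agilent G2565BA scanner, read spots with Imagene and applied print-tip loess without background correction. The authors' deposited value table holds log2 ratios of sample over reference, which equal those of the normalized files to within 5e-06. Version numbers of these tools are not given in the sources used here. The mean spot intensity was corrected with normexp (offset 50) and loess within arrays, control spots at weight 0, in limma 3.58.1 under R 4.3.3. A ratio was then fitted with lmFit and eBayes on group and dye orientation over 12 arrays, two-sided, with Benjamini-Hochberg adjustment over 41174 probes at 0.05. The fit was tested on simulated data with noise drawn independently per probe and array, which holds none of the array effects described above. Group means and per-array values are corrected for the fitted dye term. The number of arrays limits the precision.

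Gene symbols came from the platform annotation and were updated with RefSeq synonyms (34186 probes with 1 symbol, 6988 with none, 18295 genes). Named genes are Usp7 and Kat5, every called probe with a current symbol and its other probes, up to 4 members of each of 35 lists by smallest p, and the 10 largest falls and rises among uncalled genes whose groups do not overlap. Called probes without a symbol, Mdm2, Dnmt1, Cdkn1a, Nr4a1, Lyz2 and the markers were named after their values were seen. Members and lists were chosen with earlier results of these data known. Alternatives covered background, normalization, dye terms, filters, weights and leaving out arrays. Samples with the same replicate number were not paired: the correlations of their deviations were 0.11, 0.017, -0.29 and 0.096.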

Additional observations from a re-analysis of the deposited data

Results flagged for a closer look

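In groups of 4 arrays, 1 array was compared with the others by the gap to its nearest neighbour over the range of the group, against Dixon's 95% critical value. Of 142 groups, 8 passed, and chance passes about 1 in 20. In USP7-si, replicate 4 stood apart for Pdgfa, at -1.01 against -1.08 to -1.07 on the other 3 arrays, and for the median of collagens and extracellular matrix genes, at -0.726 against -0.566 to -0.535. Among the control-si arrays, replicate 3 stood apart for Fos at -1.05, for MMAB000782 at -0.417 and for the median of cholesterol synthesis genes at -0.728. Control-si replicate 1 stood apart for Hoxa7 at -0.68. Control-si replicate 4 stood apart for Heatr6 at 0.0522 and for the median of brown adipocyte genes at 0.0159.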

How the results depend on the processing

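The 35 calls became 12 with plain background subtraction, 3 with median centring in place of loess, 4 with arrays scaled to equal spread, 18 without the dye term, 77 with array quality weights, 56 with the spot background rule and equal spread together, and 5532 in the sample dye alone. Leaving out 1 array gave 14 (without USP7-si replicate 1) to 49 (without TIP60-si replicate 4). A fit with the replicate number as a block gave 37, of which 30 were among the 35, and the numbers do not pair the samples. With no background correction 30 of the 35 calls remained, in the authors' deposited ratios 32, and with the spot background rule, chosen after seeing the data, 33. Scaling to equal spread turned Lars2 to 0.0438 and Ccn1 to -0.141. In the sample dye alone Tek was at -0.492, H2ac10 at 0.0561, Olfr598 at -0.387, Kpna2 at 0.0463 and H2ac1 at 0.0189. Calls that differed between the knockdowns numbered 15, and 4 after scaling to equal spread. The group difference in spread, -0.0212, was 0.00462 in the authors' ratios, 0.000889 with the spot background rule and 0.00182 with no background correction. The cause of these changes was not tested. A slide block was not run, since the files name no slide. The number of arrays limits the precision.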
